A study of Mus musculus with 37 samples.

Results

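The genes described here are 10 markers of the sinusoidal endothelial cells of the mouse liver: Clec4g, Stab1, Stab2, Kdr, Lyve1, Fcgr2b, Oit3, Gpr182, Dnase1l3 and Flt4. They were taken by symbol from a table of 55487 genes, each symbol matching 1 row, and all 10 were among the 15564 genes that passed the filter on low counts. Whole-liver RNA was sequenced in 37 libraries, from mice of 2 genotypes: wild type (WT) and a knockout (KO) of Nox4, an NADPH oxidase that makes hydrogen peroxide. The mice had a partial hepatectomy, which removes most of the liver, or a sham operation, and the study asked how regeneration proceeds without Nox4. Each genotype had 5 sham livers. Hepatectomy livers numbered 3 WT and 3 KO at 6 h, 3 WT and 4 KO at 24 h, 4 WT and 4 KO at 48 h, and 3 WT and 3 KO at 7 d. Replicate numbers used here were given in the order of deposit, only to name libraries. The shams of a genotype formed 1 group of mixed times: in WT, replicate 5 was taken at 6 h, replicate 3 at 24 h, replicates 2 and 4 at 48 h and replicate 1 at 7 d. In KO, replicate 5 was taken at 6 h, replicate 1 at 24 h, replicates 2 and 3 at 48 h and replicate 4 at 72 h. All groups held both sexes except the 6 h hepatectomy livers, which were all male. The labels give no strain, age, knockout allele or sequencing batch, and do not name the animals, so p-values measure the spread between these libraries.

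Sinusoidal endothelial cells line the capillaries between plates of hepatocytes. Unlike other endothelium they are pierced by open fenestrae and lack a continuous basement membrane, and they clear waste macromolecules from blood through a dense set of scavenger and lectin receptors. During regeneration they receive vascular growth factor signals from hepatocytes and send growth signals back to them. Whole-liver RNA mixes all cell types, so fewer endothelial cells and less RNA per endothelial cell cannot be told apart in any value given here.

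Because 9 of the 10 genes varied together across libraries, stretches upstream of 3 of them are shown, with matches to the motifs of factors known from endothelial cells in capitals. RefSeq start sites of the GRCm38.p6 build were available for 6 members (Clec4g, Stab1, Stab2, Kdr, Fcgr2b and Flt4). The stretches below lie within the 250 bases before the start and read 5′ to 3′ on the gene's own strand, which is the minus strand for all 3. The Clec4g stretch is chr8:3720652-3720776, the Stab1 stretch is chr14:31168642-31168766 and the Kdr stretch is chr5:75978581-75978705.
Clec4g: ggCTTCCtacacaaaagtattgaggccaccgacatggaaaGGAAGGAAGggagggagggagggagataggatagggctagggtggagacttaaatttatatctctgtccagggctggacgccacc
Stab1: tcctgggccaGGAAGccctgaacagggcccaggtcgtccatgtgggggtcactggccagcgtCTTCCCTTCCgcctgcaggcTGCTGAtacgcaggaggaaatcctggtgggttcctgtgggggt
Kdr: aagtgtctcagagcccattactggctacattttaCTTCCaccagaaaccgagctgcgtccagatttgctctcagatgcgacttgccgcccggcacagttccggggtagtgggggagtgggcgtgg

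The ETS core GGAAG, or CTTCC on the other strand, was found in the 250 bases of 6 of 6 members, against 63.6% of 27025 promoter windows of that length. The MAF half-site TGCTGA, or TCAGCA, was found in 1 of 6 (Stab1), against 15.8% of windows. The GATA motif GATAA, or TTATC, was in 0 of 6 members and 23.0% of windows, and the AP-1 motif TGACTCA, or TGAGTCA, in 0 of 6 and 4.43%. The windows follow RefSeq starts. In the GENCODE annotation the Flt4 and Fcgr2b windows lie inside the gene, as does the part of the Stab2 window that holds its ETS match. The printed stretches lie before the start in both annotations. None of these motifs holds another, and a match describes the sequence only.

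Total counts ranged from 26232544 to 48827025 per library. Levels are given as CPM, the count scaled to the size of its library. Nox4 itself lay between 3.95 and 23.5 CPM in 11 WT males and between 0.325 and 4.98 in 12 KO males. In females it lay between 0.778 and 3.36 CPM in 7 WT livers and between 0 and 0.245 in 7 KO livers. The labels do not say which part of the gene was deleted, so this is a limited check of genotype. WT 24 h replicate 3 stood apart with 8.93% mitochondrial counts. On the first principal component KO 24 h replicate 1 stood apart from its group, with -26.8 against 90.6, 122 and 98.0 in the others. It lay within the range of the WT 24 h livers, -32.8 to 0.660. Hepatectomy livers at 6 h scored 61.2 to 91.0 in WT and 65.0 to 73.3 in KO. The other 24 h KO livers lay above that KO range and within or above that WT range. The 6 h sham livers (replicate 5 of each genotype) scored 40.9 in WT and 19.3 in KO, above the other shams of their genotype.

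Levels between genes were compared per length, as CPM per kilobase of annotated exon. Clec4g, a C-type lectin receptor, had the highest median over the 37 libraries, at 11.1 CPM per kilobase (range 1.32 to 21.5). It was followed by Dnase1l3 at 6.53, Gpr182 at 4.32, Oit3 at 3.25, Fcgr2b at 3.20, Lyve1 at 2.28, Stab2 at 2.05, Stab1 at 1.68, Flt4 at 1.60 and Kdr at 1.18. The ranges over libraries of all neighbours in this order overlapped. Member counts were between 30 (Kdr) and 3640 (Dnase1l3) per library. Clec4g, Stab1, Stab2, Fcgr2b and Gpr182 share between 74 and 155 exon bases with a gene on the opposite strand, and Fcgr2b resembles other Fc receptor genes, so their counts are less certain.

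The mean log2 CPM of the 10 members ordered the groups from WT sham (4.55 ± 0.60, SD, n = 5) through WT 6 h (4.18 ± 0.70, n = 3), WT 24 h (4.16 ± 0.65, n = 3) and KO sham (4.01 ± 0.45, n = 5). Then came KO 48 h (3.95 ± 0.40, n = 4), KO 7 d (3.93 ± 0.05, n = 3), KO 6 h (3.91 ± 0.28, n = 3), WT 7 d (3.71 ± 0.41, n = 3) and WT 48 h (3.58 ± 0.63, n = 4). KO livers at 24 h were lowest, at 2.73 ± 0.40 (n = 4). Their range, 2.39 to 3.19, overlapped only that of WT 48 h, in which replicate 3 lay at 2.63. Neighbours elsewhere in the order differed by less than their spread.

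**Figure D1:**
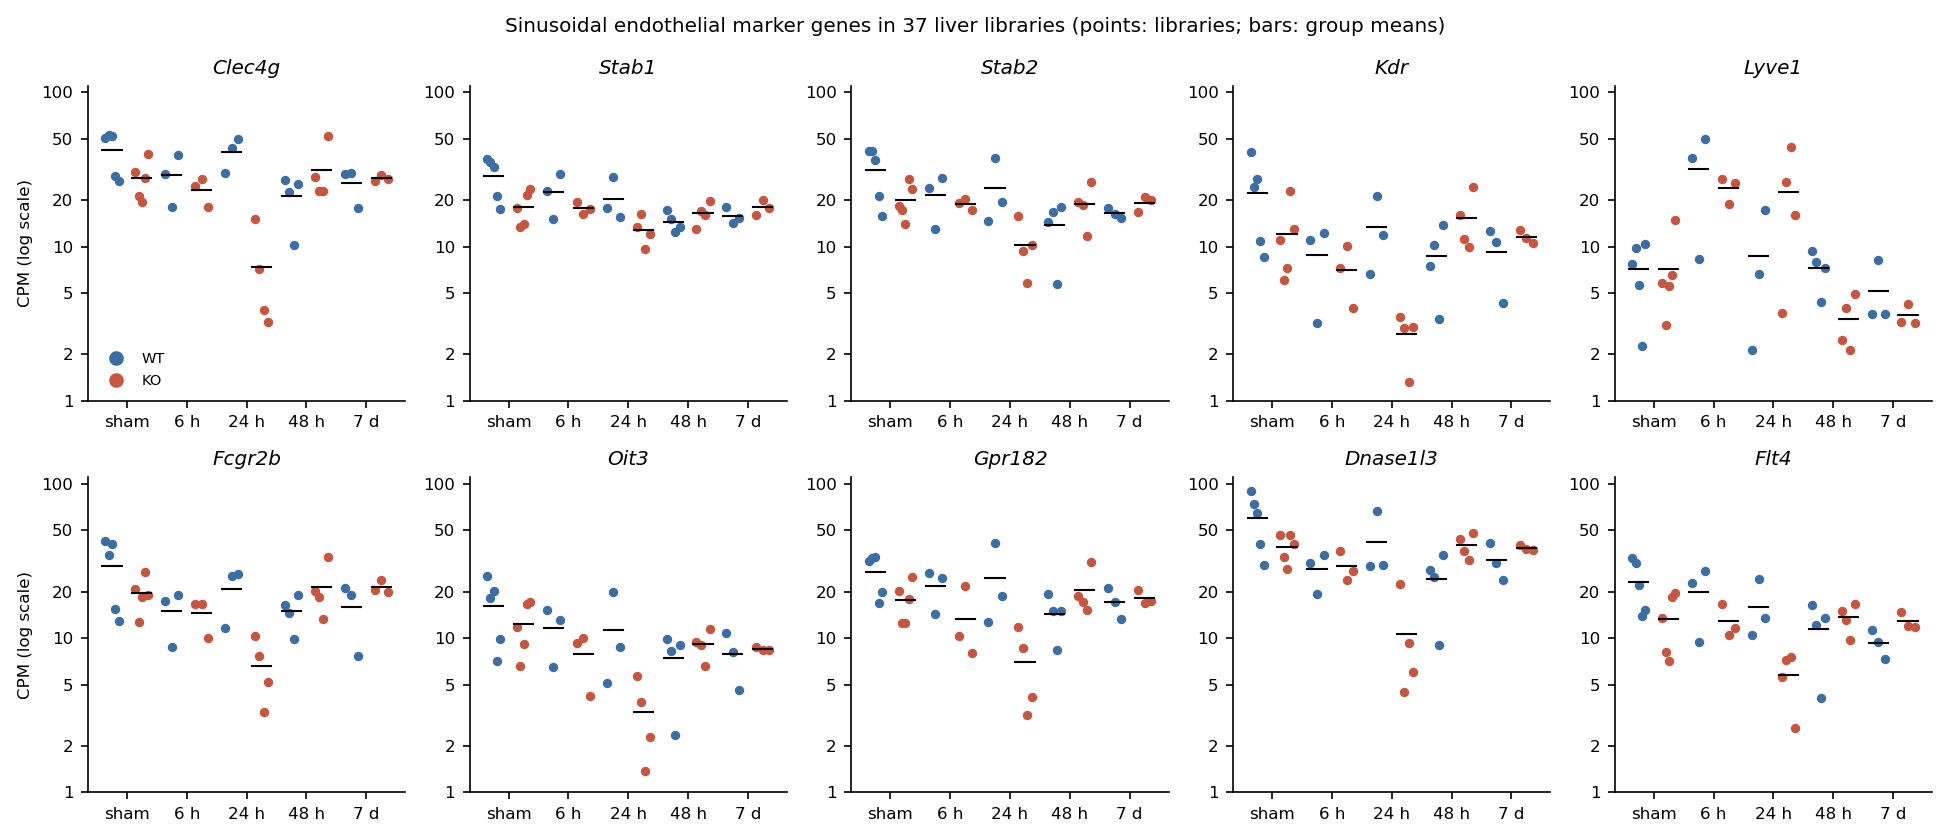
CPM of each of the 10 members on a log axis, by stage after hepatectomy, with WT libraries in blue and KO libraries in red; points are libraries and bars are group means. The red points at 24 h are the lowest group mean for each member except Lyve1, which is high at 6 h in both genotypes and in 3 of 4 KO livers at 24 h.

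In KO livers, the genes of the sinusoidal endothelium fell between sham and 24 h after hepatectomy. By edgeR's quasi-likelihood test with Benjamini-Hochberg adjustment over all genes tested, 8 of 10 members fell, Lyve1 rose and Stab1 did not pass. Of all tested genes 12.0% fell and 15.9% rose in this comparison. The median log2 change was -1.49 for the members and -0.01 for all genes. Of the members, 6 (Clec4g, Kdr, Fcgr2b, Oit3, Gpr182 and Dnase1l3) had 24 h values that all lay below every KO sham value. The share of all tested genes that lay apart in this way was not counted, so the 6 are a description only.

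Among the scavenger and lectin receptors, Clec4g (chr8:3707064-3720651) stood at 30.3, 21.3, 19.6, 27.7 and 39.9 CPM in KO sham replicates 1 to 5 and at 15.2, 7.18, 3.86 and 3.26 CPM in the 24 h KO livers. Every 24 h value lay below every sham value, and replicate 1 was the highest of the 24 h livers. The log2 change was -1.95 (SE 0.38, adjusted p = 0.000548). Stab2 (chr10:86841198-87008025), stabilin-2, which takes up hyaluronan and other waste molecules, measured 18.5, 17.3, 14.1, 27.6 and 23.5 CPM in sham and 15.7, 9.39, 5.82 and 10.3 CPM at 24 h. Only replicate 1 reached the sham range, and the log2 change was -1.03 (SE 0.34, adjusted p = 0.0223). Its paralog Stab1 (chr14:31139013-31168641), stabilin-1, also made by macrophages, measured 17.8, 13.4, 14.0, 21.8 and 23.6 CPM in sham and 13.3, 16.4, 9.63 and 12.1 CPM at 24 h. Those groups overlapped, and the log2 change of -0.51 (SE 0.23) did not pass the test. Fcgr2b (chr1:170958617-170976547), the inhibitory Fc receptor that clears immune complexes, measured 20.8, 12.7, 18.6, 27.0 and 19.0 CPM in sham and 10.3, 7.71, 3.33 and 5.18 CPM at 24 h. The groups did not overlap, and the log2 change was -1.60 (SE 0.39, adjusted p = 0.00306).

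Both members that are receptors for vascular endothelial growth factors (VEGF) fell. Kdr (chr5:75932827-75978458), the main VEGF-A receptor of blood endothelium, measured 11.1, 6.07, 7.25, 22.8 and 13.0 CPM in KO sham and 3.48, 2.98, 1.33 and 3.01 CPM at 24 h. The highest 24 h liver was below the lowest sham, and the log2 change of -2.17 (SE 0.53, adjusted p = 0.00305) was the largest of the members. Flt4 (chr11:49609263-49652739), a receptor for VEGF-C and VEGF-D, measured 13.6, 8.19, 7.08, 18.4 and 19.7 CPM in sham and 5.59, 7.18, 7.59 and 2.63 CPM at 24 h. Of the 24 h livers 2 lay within the sham range, and the log2 change was -1.18 (SE 0.38, adjusted p = 0.0202). Gpr182 (chr10:127747276-127751732), an atypical chemokine receptor, measured 20.4, 12.4, 12.5, 17.9 and 24.9 CPM in sham and 11.8, 8.68, 3.20 and 4.14 CPM at 24 h. Its log2 change was -1.38 (SE 0.38, adjusted p = 0.00815).

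Dnase1l3 and Oit3 fell as well. Dnase1l3 (chr14:7964533-7994573), a secreted nuclease that degrades DNA in circulating particles, measured 46.8, 33.6, 28.1, 46.8 and 40.5 CPM in KO sham and 22.6, 4.46, 9.32 and 6.02 CPM at 24 h. Replicate 1 was again the highest 24 h liver, and the log2 change was -1.94 (SE 0.40, adjusted p = 0.000896). Oit3 (chr10:59422958-59441778), whose product carries a zona pellucida domain, measured 11.7, 6.59, 9.20, 16.8 and 17.2 CPM in sham and 5.70, 3.87, 1.38 and 2.30 CPM at 24 h. Its log2 change was -1.91 (SE 0.47, adjusted p = 0.00368).

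Of the 8 falls, 5 (Clec4g, Kdr, Fcgr2b, Oit3 and Dnase1l3) passed in all 16 alternative analyses of this comparison. Stab2 no longer passed without KO 24 h replicate 2, 3 or 4 or in the compared groups alone, Gpr182 in those groups alone and Flt4 without KO 24 h replicate 4, while Stab1 passed without KO sham replicate 3.

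**Figure D2:**
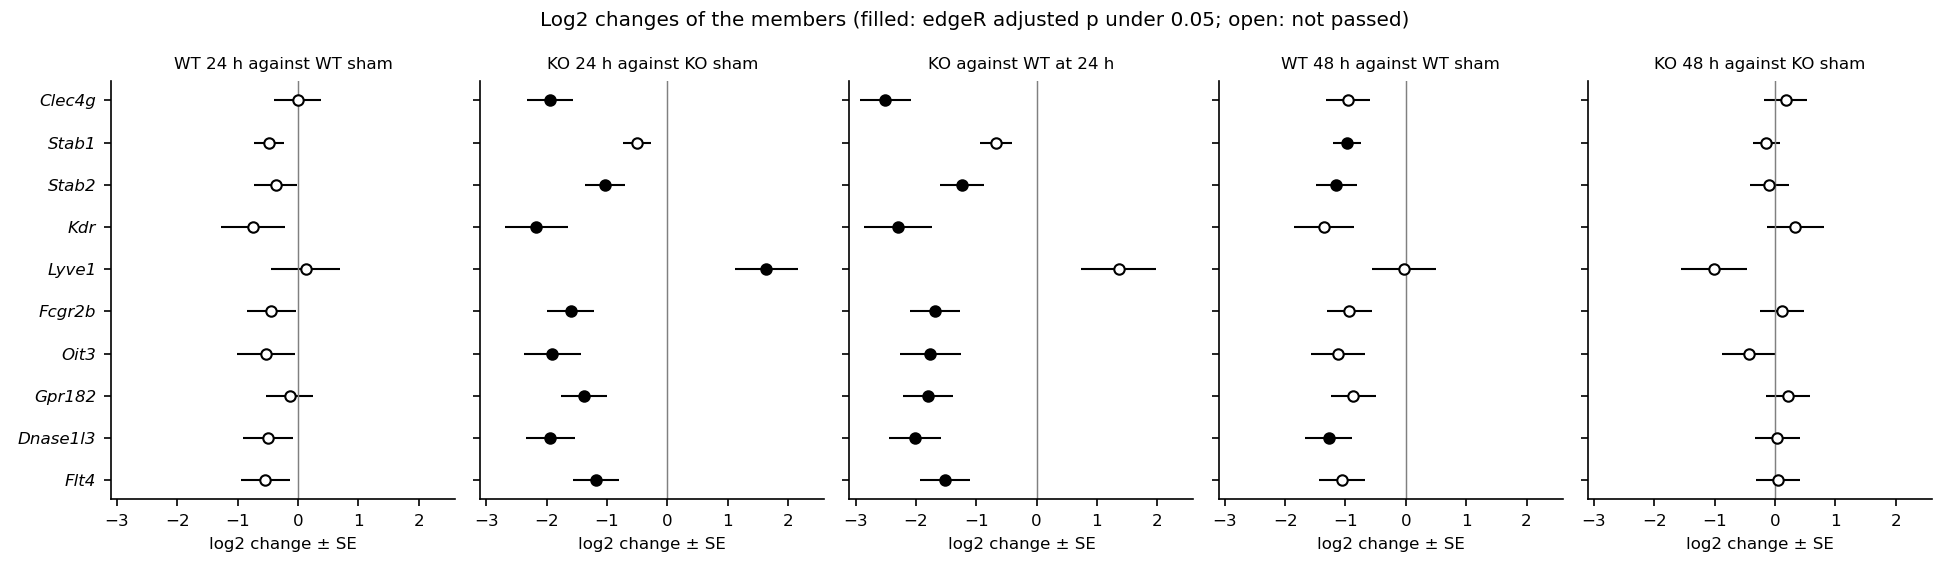
Log2 change with its standard error for each member (rows) in 5 comparisons (panels); filled points passed an adjusted p of 0.05 and open points did not. Points lie mostly left of 0 in WT at 24 h (median -0.46, none passed) and farther left in KO at 24 h (median -1.49), with Lyve1 on the right at 1.64.

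In WT livers at 24 h, 0 of 10 members passed against WT sham by edgeR, 0 passed at an unadjusted p under 0.05, and 0 passed by DESeq2, where edgeR called 0.366% of all genes higher and 0.559% lower. The median log2 change was -0.46, and 9 of 10 changes were negative, the lowest in Kdr (-0.75, SE 0.53). Clec4g measured 29.9, 43.9 and 49.6 CPM in these livers, within the WT sham range of 26.8 to 53.0, and its log2 change was -0.01 (SE 0.39).

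Compared directly at 24 h, KO livers had lower levels than WT livers for 8 of 10 members, while 7.50% of all genes were lower. DESeq2 called 9 lower. The median log2 difference of the members was -1.72, against -0.03 for all genes. Clec4g differed most, with 3.26 to 15.2 CPM in 4 KO livers and 29.9 to 49.6 CPM in 3 WT livers (log2 difference -2.51, SE 0.42, adjusted p = 0.000878). Kdr stood at 6.68, 21.3 and 12.0 CPM in WT, above each KO liver (-2.30, SE 0.56, adjusted p = 0.0071). Dnase1l3 stood at 29.3, 67.1 and 30.0 CPM in WT, also above each KO liver (-2.01, SE 0.43, adjusted p = 0.00344). The other members past the threshold were Gpr182 (-1.80), Oit3 (-1.76), Fcgr2b (-1.68), Flt4 (-1.51) and Stab2 (-1.24), with adjusted p-values of 0.00506, 0.0171, 0.00824, 0.0142 and 0.0206. Oit3 and Stab2 overlapped between the genotypes. Stab1 (-0.67, SE 0.26) and Lyve1 (1.36, SE 0.62) did not pass.

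The count rested in part on single libraries. It was 4 without WT 24 h replicate 2, 5 without KO 24 h replicate 4 and 6 without KO 24 h replicate 3. Fitted on the 2 groups of 24 h livers alone, 0 members passed, as did 0 of all genes.

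Whether hepatectomy changed a gene differently in the genotypes was tested by the interaction at 24 h. Clec4g alone passed, with a log2 difference of -1.94 (SE 0.54, adjusted p = 0.0271), where 2.96% of all genes passed in that direction. At an unadjusted p under 0.05 there were 5 members, all lower, beside 4192 of 15564 genes in either direction, and DESeq2 called 1. For the other 9 members, the change after hepatectomy is therefore not shown to differ between the genotypes. With no filter on low counts 7 members passed (Clec4g, Kdr, Fcgr2b, Oit3, Gpr182 and Dnase1l3 lower, Lyve1 higher), and without KO 24 h replicate 1 the count was 3. The Clec4g call was lost without WT sham replicate 5, WT 24 h replicate 3, or KO 24 h replicate 3 or 4, and without both 6 h sham livers.

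Lyve1 (chr7:110850607-110863239), a hyaluronan receptor shared with lymphatic endothelium, had another pattern than the other 9 members. In WT it measured 7.69, 9.82, 5.65, 2.27 and 10.4 CPM in sham and 37.5, 8.36 and 49.7 CPM at 6 h. Of the 6 h livers 2 lay above every sham, and replicate 2 lay within the sham range. The log2 change was 1.83 (SE 0.59, adjusted p = 0.0503), just short of the threshold. In KO it measured 5.85, 3.13, 5.58, 6.51 and 14.8 CPM in sham and 27.6, 18.8 and 25.8 CPM at 6 h, with no overlap. The test was not passed there either, with a log2 change of 1.58 (SE 0.57, adjusted p = 0.089).

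At 24 h the KO livers measured 3.73, 26.4, 44.2 and 16.1 CPM of Lyve1, and replicates 2, 3 and 4 lay above every KO sham. Replicate 1, whose score on the first principal component was close to the shams, lay within the sham range. Lyve1 rose in this comparison (log2 change 1.64, SE 0.53, adjusted p = 0.0204), but the call was lost without KO sham replicate 2 or 4, without KO 24 h replicate 3, in males alone and in the compared groups alone. WT livers at 24 h measured 2.14, 6.64 and 17.3 CPM. By 48 h KO livers measured 2.48, 4.02, 2.13 and 4.91 CPM, each below 4 of the 5 KO shams, and the log2 change of -1.01 did not pass. Lyve1 and Nox4 both lie on chromosome 7, 23.5 Mb apart, and an effect of this linkage was not tested. Between the genotypes Lyve1 passed at no stage. Its log2 differences were -0.16 in sham, -0.41 at 6 h, 1.36 at 24 h, -1.14 at 48 h and -0.26 at 7 d. Lymphatic endothelial markers (Pdpn, Prox1, Reln and Ccl21a, of 5 listed) summed to 41.3 to 85.8 CPM in KO sham and 47.8 to 70.8 CPM in KO at 24 h. Of these 4, 0 passed by edgeR or DESeq2 and 1, Ccl21a, was lower at an unadjusted p under 0.05. Prox1 is also made by hepatocytes and Reln by stellate cells, and only 1 of the table's 2 Ccl21a rows passed the count filter. The part of lymphatic cells in the Lyve1 result was not tested.

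**Figure D3:**
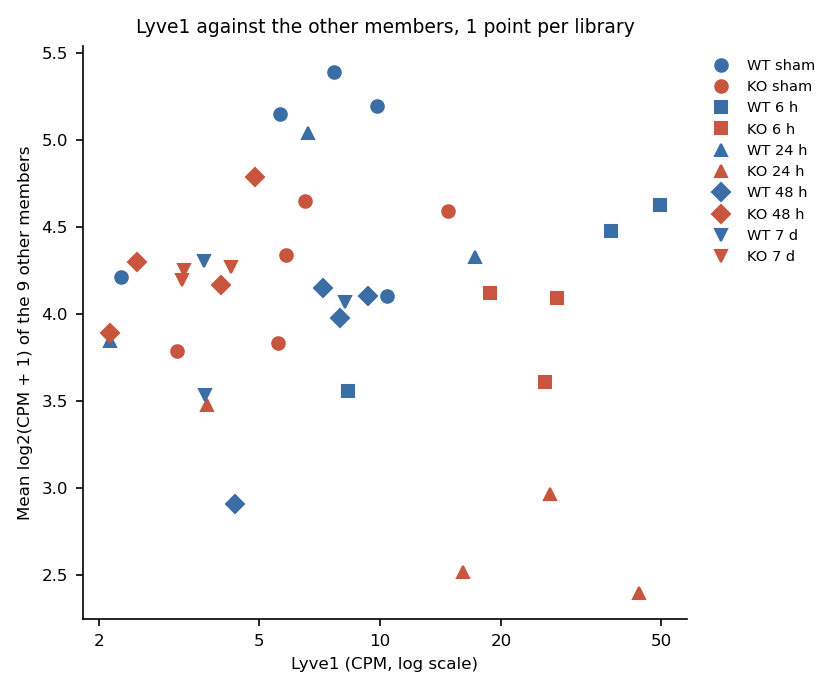
Lyve1 in CPM (log axis) against the mean log2(CPM + 1) of the 9 other members, 1 point per library, coloured by genotype and shaped by stage. The 24 h KO livers 2 to 4 lie at the lower right, with Lyve1 between 16.1 and 44.2 CPM and the other members low, while KO 24 h replicate 1 has Lyve1 at 3.73 CPM.

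Across the 37 libraries, log2 CPM of each of the 9 other members correlated with the mean of the remaining members at r between 0.83 (Stab1) and 0.95 (Oit3), against -0.14 for Lyve1. Over the 45 pairs the median r was 0.83, with Kdr and Fcgr2b highest at 0.95 and Lyve1 and Dnase1l3 lowest at -0.33. After group means and sex were removed, all 45 pairs had a positive r, with a median of 0.74. Lyve1 as log2(CPM + 1) followed the first principal component with r = 0.84, and the mean of the other 9 with r = -0.54. These correlations share libraries and scaling and are given as descriptions.

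At 6 h after hepatectomy, 0 members passed in WT by edgeR, where 4.16% of all genes rose and 3.70% fell. At an unadjusted p under 0.05 there were 3 (Lyve1 higher and 2 lower), beside 3838 of 15564 genes, and DESeq2 called 1, higher. In KO at 6 h, 0 passed by edgeR, where 4.11% of all genes rose and 2.51% fell. Unadjusted, 1 member and 3404 of 15564 genes passed, and 0 members passed by DESeq2. The other 9 members had log2 changes between -1.32 (Kdr) and -0.22 in WT. Kdr measured 11.0, 3.18 and 12.2 CPM in WT livers at 6 h, and replicate 2 was the lowest for each member in this group.

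At 48 h members fell in WT livers. Against WT sham 3 members fell and 0 rose, while 3.62% of all genes fell and 4.68% rose, and the members' median log2 change was -1.02. Stab1 measured 36.8, 35.6, 32.6, 21.4 and 17.5 CPM in WT sham and 17.3, 15.0, 12.4 and 13.3 CPM at 48 h, without overlap (log2 change -0.98, SE 0.23, adjusted p = 0.0083). Stab2 measured 41.7, 41.9, 36.6, 21.3 and 15.8 CPM in sham and 14.5, 16.8, 5.68 and 18.0 CPM at 48 h (-1.15, SE 0.33, adjusted p = 0.0286). Dnase1l3 measured 89.8, 74.2, 64.8, 40.6 and 30.0 CPM in sham and 27.9, 25.0, 9.01 and 34.6 CPM at 48 h (-1.28, SE 0.39, adjusted p = 0.0365). WT sham replicates 4 and 5, taken at 48 h and 6 h, were lower than the other 3 shams for all 3 genes, and WT 48 h replicate 3 was the lowest library. At an unadjusted p under 0.05 there were 9 members, all lower, beside 3509 of 15564 genes in either direction. DESeq2 called 5 members lower. The count was 9 with no filter on low counts and 5 without WT sham replicate 5, 1 without WT sham replicate 1 or 2 or WT 48 h replicate 2 or 3, and 0 in males alone or in the 2 groups alone.

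In KO at 48 h, 0 members passed by edgeR, 0 unadjusted and 0 by DESeq2, where 2.30% of all genes rose and 0.700% fell. Clec4g had returned to 28.4, 22.9, 22.8 and 52.2 CPM and Kdr to 16.0, 11.1, 9.88 and 24.2 CPM, within or above the KO sham range. Between KO and WT at 48 h, 0 members passed by edgeR against 0.341% of all genes, 0 unadjusted and 0 by DESeq2. The interaction at 48 h had 0 by edgeR and 0 by DESeq2, as did all genes by edgeR (0%). At an unadjusted p under 0.05, 7 members were higher in it, beside 1198 of 15564 genes in either direction.

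At 7 d, 0 members passed in WT (0% of all genes; 7 lower unadjusted, 0 by DESeq2) and 0 in KO (0% of all genes; 0 unadjusted, 0 by DESeq2). Of all 15564 genes, 950 in WT and 497 in KO passed unadjusted at 7 d, in either direction. Members in the 7 d KO livers lay close together, as in Oit3 at 8.72, 8.42 and 8.40 CPM. Between the genotypes at 7 d, 0 passed by edgeR, unadjusted or by DESeq2, against 0.0450% of all genes. The interactions at 6 h and 7 d gave 0 by edgeR and 0 by DESeq2 (0% of all genes in each). Unadjusted there were 0 and 2 members, beside 715 and 347 of 15564 genes.

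In sham livers 0 members passed between the genotypes by edgeR and 0 by DESeq2, with 0.276% of all genes called. All 10 log2 differences were negative, with a median of -0.57 against -0.01 for all genes. Of the members 2 passed at an unadjusted p under 0.05, as did 1999 of 15564 genes. Most members varied together, so the shared sign is not 10 separate results. The ranges of the members' mean log2 CPM overlapped, at 3.84 to 5.12 in WT sham and 3.47 to 4.47 in KO sham. At 6 h 0 passed by edgeR, unadjusted or by DESeq2, against 0.116% of all genes. Between males and females 0 members passed by edgeR, unadjusted or by DESeq2, against 3.59% of all genes.

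Other endothelial genes were counted in the same way, beside the 12.0% of all genes that fell and the 15.9% that rose in KO at 24 h. Of 8 other sinusoidal genes 4 fell by edgeR and 5 by DESeq2. They were, by edgeR, F8, clotting factor VIII (log2 change -1.72, SE 0.48), Mrc1, the mannose receptor (-1.49, SE 0.52), Ehd3, of endocytic trafficking (-1.05, SE 0.37), and Maf, a transcription factor (-0.94, SE 0.17). Of 20 pan-endothelial genes 3 fell (Cldn5, Erg and Sox18) and Nos3, endothelial nitric oxide synthase, rose (1.96, SE 0.41, adjusted p = 0.00091). These pan-endothelial counts are near or below the shares over all genes. Their median log2 change was -0.39, against -1.49 for the members. Against WT at 24 h, 9 of these 20 were lower, where 7.50% of all genes were lower, with the junction gene Cldn5 (-2.20, SE 0.37) and the adhesion genes Icam2 (-1.62, SE 0.36) and Pecam1 (-1.16, SE 0.33) among them, and the median was -0.99. Of the 8 other sinusoidal genes, 4 (F8, Adam23, Bmp2 and Ehd3) were lower against WT at 24 h. Mrc1 and Maf did not pass there, also at an unadjusted p under 0.05. Per library, the members' mean log2 CPM exceeded that of the pan-endothelial genes by 1.11 to 1.57 in KO sham and by 0.86, 0.48, 0.08 and 0.44 in the 24 h KO livers. WT libraries at 24 h had excesses of 0.76 to 1.28, and WT 48 h replicate 3 had 0.45.

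**Figure D4:**
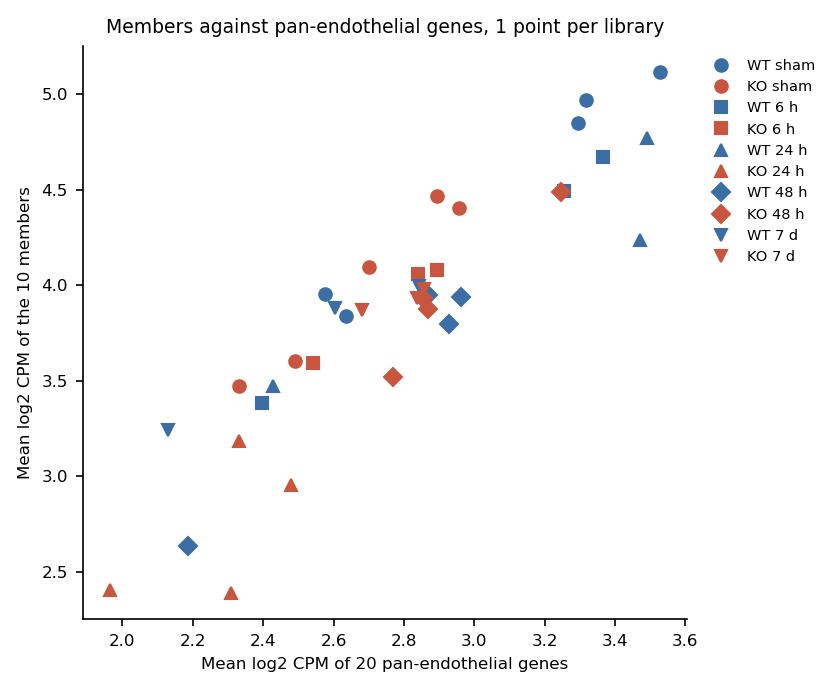
Mean log2 CPM of the 10 members against that of 20 pan-endothelial genes, 1 point per library, coloured by genotype and shaped by stage. The 4 red triangles of KO livers at 24 h lie at the bottom, with member means between 2.39 and 3.19, and WT 48 h replicate 3 lies beside them at 2.63.

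Pathway genes around the VEGF receptors were counted beside the shares of all genes in KO at 24 h against sham (15.9% higher, 12.0% lower). In that comparison the VEGF and angiopoietin list and the angiocrine and zonation list had shares near or below those of all genes. Their counts there show nothing particular to these pathways. Of 11 tested VEGF and angiopoietin genes in KO at 24 h, Nrp1, a VEGF co-receptor, rose (log2 change 1.94, SE 0.40) and Vegfb fell (-1.36, SE 0.29). Of 15 angiocrine and zonation genes 3 rose, the chemokine receptor Ackr3 (3.05, SE 0.61), Id1 (2.63, SE 0.57) and thrombomodulin Thbd (2.49, SE 0.54), and the Notch ligand Dll4 fell (-1.45, SE 0.46). Against WT at 24 h, 11.1% of all genes were higher and 7.50% lower. Of the 11 VEGF and angiopoietin genes, Nrp1, Vegfb, Tie1 and Tek passed there, where 18.6% of all genes passed in either direction. Tie1 and Tek are also among the pan-endothelial genes. Of the 15 angiocrine and zonation genes 0 were higher there by edgeR (2 at an unadjusted p under 0.05, 1 by DESeq2). Lower were 4 of the 15, a larger share than that of all genes: Kit (-2.86), the Wnt ligands Wnt9b (-2.16) and Wnt2 (-2.11), and Bmp2 (-1.63). Of 7 continuous capillary and basement membrane genes, the collagen chains Col4a1 (1.55, SE 0.35) and Col4a2 (1.29, SE 0.29) rose in KO at 24 h. The laminin chain Lama4 fell (-1.28, SE 0.47), a call lost in 8 of 16 alternatives. Of 4 endothelial activation genes the adhesion gene Selp rose (2.29, SE 0.46). Among 11 endothelial transcription factors Klf4 rose (1.73, SE 0.44) and Maf, Erg, Sox18 and Lmo2 fell. The rises in the capillary and activation lists and the falls among the transcription factors exceeded the shares of all genes, in short lists. The activation rise was Selp alone. Maf, Erg and Sox18 were already counted in the sinusoidal and pan-endothelial lists, so their falls are not separate results. Col4a1 also passed at 6 h in both genotypes. At 24 h the sums of the capillary list overlapped, at 174 to 212 CPM in KO and 103 to 266 CPM in WT.

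Markers of other cell types moved in the same comparison, and their part in the members' result was not tested. Of 12 Kupffer cell markers 10 fell, such as Adgre1 (-2.04, SE 0.54), Clec4f (-1.67, SE 0.38) and Csf1r (-1.65, SE 0.37), and their summed level was 390.8 to 597.6 CPM in KO sham and 144.1 to 434.2 CPM at 24 h. Of 8 T and NK cell markers 5 fell, from a summed 1.85 to 6.65 CPM in sham to 0.620 to 1.79 CPM. Of 5 B cell markers 3 fell. Of 9 stellate cell markers 0 passed by edgeR or DESeq2 in KO at 24 h (1 lower unadjusted), and their sum was 141.7 to 225.0 CPM in sham and 135.4 to 255.2 CPM at 24 h. Of 7 hepatocyte markers only Fgb, a fibrinogen chain, passed (1.21, SE 0.35). Of 5 cholangiocyte markers only Sox9 rose (2.75, SE 0.65), and their sum was 14.7 to 45.5 CPM in KO sham and 18.9 to 157.4 CPM at 24 h, highest in replicate 3. The sum of 5 neutrophil markers was 2.12 to 7.50 CPM in sham and 2.53 to 12.1 CPM at 24 h. Without KO 24 h replicate 1 the counts were 8 members lower and 1 higher, 10 Kupffer markers lower, and 4 pan-endothelial genes lower and 1 higher.

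Markers of other cell types also differed between KO and WT at 24 h, where 11.1% of all genes were higher and 7.50% lower, and their part in the members' difference was not tested. The hepatocyte markers summed to 93753 to 162277 CPM in KO and 42423 to 85382 CPM in WT, without overlap, and 2 of 7 were higher: Fgb (1.32, SE 0.41) and Alb, albumin (0.95, SE 0.27). Of 5 cholangiocyte markers Sox9 (3.85, SE 0.82) and Epcam (1.98, SE 0.66) were higher, with sums of 18.9 to 157.4 CPM in KO and 17.6 to 54.8 CPM in WT. Of 12 Kupffer markers 3 were lower (Cd5l, Vsig4 and Adgre1), with sums of 144.1 to 434.2 CPM in KO and 314.0 to 628.8 CPM in WT. Of 9 stellate cell markers only Des passed, lower (-3.01, SE 0.68), and 2 were lower and 1 higher at an unadjusted p under 0.05. Their sums overlapped, at 135.4 to 255.2 CPM in KO and 87.9 to 280.1 CPM in WT. Of 8 T and NK cell markers only Gzma passed, lower (-2.19, SE 0.70). Those sums were low, at 0.620 to 1.79 CPM in KO and 1.58 to 2.31 CPM in WT.

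**Figure D5:**
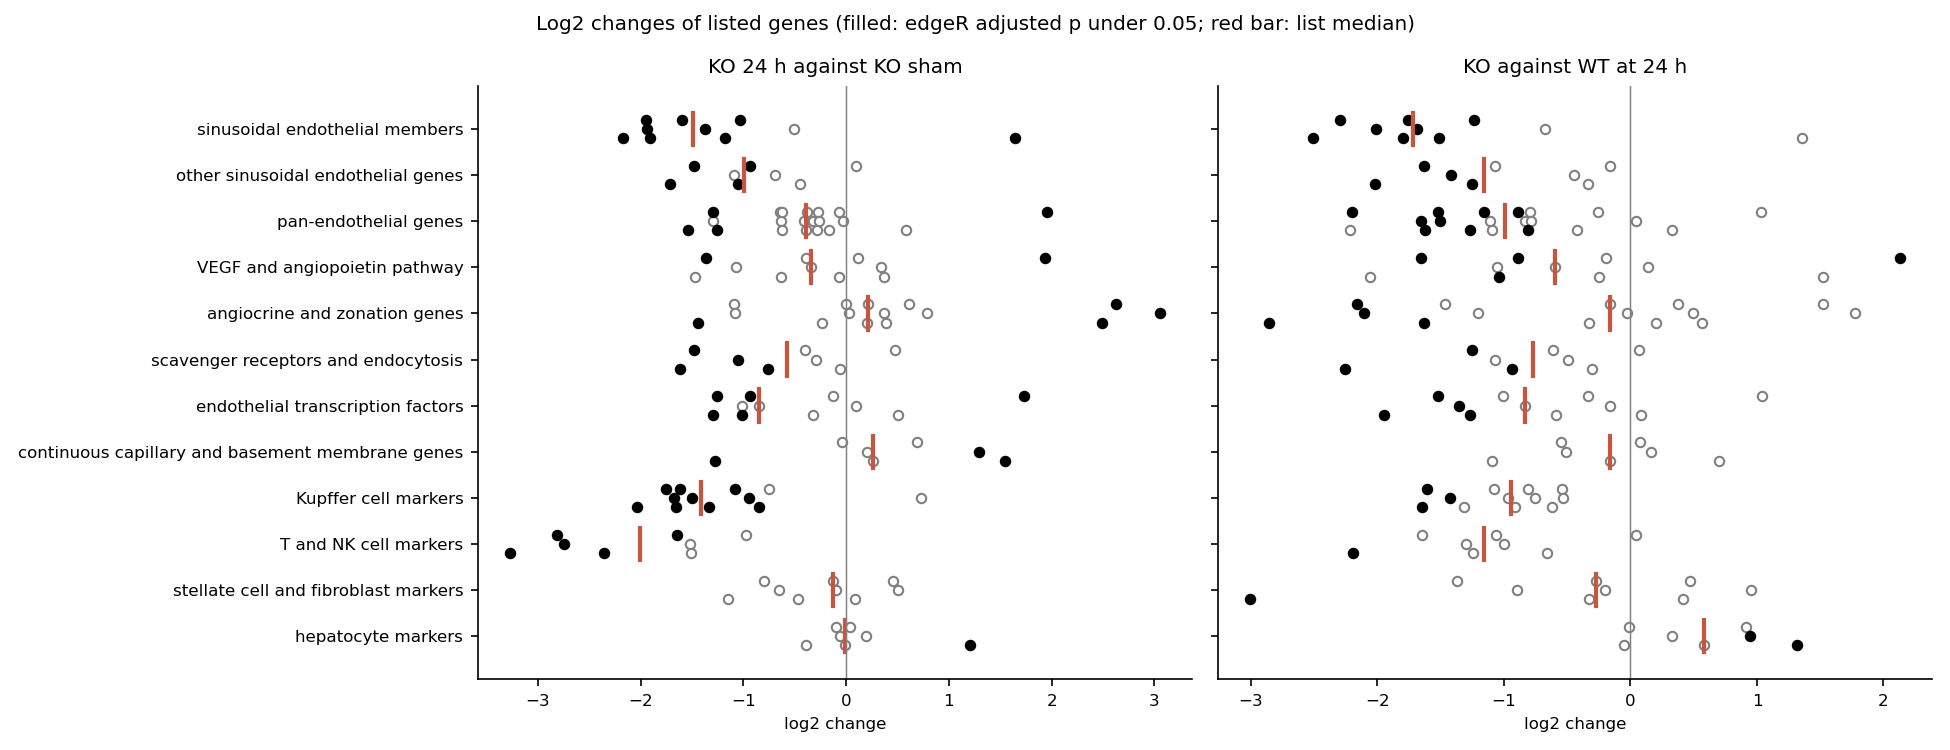
Log2 changes of single genes in 12 lists (rows) for KO 24 h against KO sham (left) and KO against WT at 24 h (right); filled points passed an adjusted p of 0.05 and red bars are list medians. The members' median lies at -1.49 on the left and -1.72 on the right, and that of the Kupffer markers at -1.42 and -0.94.

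The tested genes most like the members over the 37 libraries were, by Pearson r with the mean of their standardised log2 CPM, Sema6a (0.94), Cd300lg (0.90), Zfp366 (0.89), Tmem132e (0.89), Chst2 (0.89), Arhgef15 (0.89), Mmrn2 (0.87), F8 (0.87), Tmem88 (0.86) and Atp2b4 (0.85). Of the lists, the mean level of the pan-endothelial genes (0.90) and of the other sinusoidal genes (0.89) followed the members most closely. Kupffer markers followed at 0.52 and hepatocyte markers at -0.09.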

How the data were processed

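Whole-liver RNA sequencing of 37 libraries was analysed. The deposited table holds expected counts per gene as whole numbers, and the submitters' processing notes name STAR 2.5.3a, RSEM 1.3.0 and GRCm38. The tool that counted, the annotation release and the strand setting are not given in the sources used here. Libraries were made with a stranded mRNA kit, per the labels' protocols.

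Members and gene lists were chosen with earlier results of these data known. Genes passing filterByExpr were scaled by TMM and fitted in edgeR 4.0.16 (R 4.3.3) in 1 robust quasi-likelihood model of 10 groups plus sex, with Benjamini-Hochberg adjustment over 15564 genes and a threshold of 0.05. CPM are TMM-scaled, log2 CPM used a prior count of 2, and SE is the log2 change over the square root of F. Other genes were named by smallest p, at most 4 per list and comparison. As alternatives, RLE scaling, DESeq2 1.42.0, a fit with no sex term, a fit with no count filter, the compared groups alone, males alone, no 6 h shams, and each library left out were run. No 2 replicates were duplicates. Gene positions and lengths came from GENCODE M21, and promoters from RefSeq.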

Additional observations from a re-analysis of the deposited data

Results flagged for a closer look

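Lyve1 measured 14.8 CPM in KO sham replicate 5, the 6 h sham liver, far above the other KO shams at 3.13 to 6.51 CPM. It was the 1 library flagged in 50 checks of a member within a group, where chance flags about 1 in 20. The genotype by hepatectomy interaction of Clec4g at 24 h, a log2 difference of -1.94, was flagged as a change that differed between the genotypes, and it rested on single libraries as described above.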

How the results depend on the processing

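Counts of members past the threshold moved as follows. For WT at 6 h (0 members), DESeq2, no sex term and no 6 h shams gave 1 and no count filter gave 4. For WT at 48 h (3), DESeq2 and no 6 h shams gave 5, no count filter gave 9, and males alone and groups alone gave 0. Without the count filter the count became 2 for WT at 7 d, 1 for KO at 6 h, 1 for KO at 48 h, 1 for KO against WT in sham and at 48 h, 2 for the interaction at 48 h and 1 for sex. No 6 h shams gave 1 for KO at 6 h. KO against WT at 24 h (8) gave 4 in males alone and 0 in groups alone. The interaction at 24 h (1) gave 7 without the filter and 0 without the 6 h shams or in groups alone. Leaving out 1 library at a time gave 0 to 1 for WT at 6 h, 1 to 5 for WT at 48 h, 0 to 1 for KO at 6 h, 7 to 10 for KO at 24 h, 4 to 9 for KO against WT at 24 h and 0 to 3 for the interaction at 24 h, and 0 elsewhere. The cause was not tested. Lyve1 in WT at 48 h (log2 change -0.03) turned positive with no sex term (0.0087), no 6 h shams (0.058), and without WT sham replicate 2 (0.23) or 5 (0.034) or WT 48 h replicate 3 (0.084) or 4 (0.037), and leaving out single libraries gave -0.25 to 0.23. RLE scaling moved the median of all genes by less than 0.04. No paired analysis was possible because the labels carry no replicate numbers, those used here being names in order of deposit.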
